A study of Arabidopsis thaliana with 15 samples.

Results

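This account covers the probe sets of an Affymetrix array whose signal was low in the CLV3p cells of the Arabidopsis thaliana shoot apex and even in 3 other sorted populations. A probe set was taken if its mean in CLV3p was at most 0.25 times its mean in each of CLV3n, FILp and WUSp, if the largest of those 3 means was under 2 times the smallest, and if each was 100 or more. Means are geometric, with signals under 20 raised to 20. Of 22746 probe sets that are no controls, 10670 met the conditions on the 3 other populations and 91 of these met the condition on CLV3p, which is 0.853% of them. The 91 are described here across all 6 groups of the series.

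The 15 arrays hold total RNA of plants 24 days old. There are 3 arrays of CLV3p, 3 of CLV3n, 3 of FILp, 2 of WUSp, 2 of Protoplast_induced and 2 of Uninduced. By the design, CLV3n cells are without CLV3p cells. The labels name no genotype, reporter or sort gate for any group, and do not say how Protoplast_induced and Uninduced were prepared. These last groups carry no cell type in their labels and are called unsorted here.

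CLV3 encodes the peptide signal that the stem cells at the tip of the shoot meristem secrete. WUS is a homeodomain transcription factor of the organising centre beneath them, and FIL is a YABBY factor of organ primordia, on the side away from the meristem. Stem cells divide slowly and give rise to the cells of leaves, stem and flowers, which take on wall remodelling, plastid metabolism and specialised chemistry as they leave the tip. A gene that is low in the stem cells and similar elsewhere in the apex therefore has the reverse pattern of CLV3.

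CLV3 itself checked the labels. Its signal was 569, 1220 and 968 in CLV3p, 6.73 to 12.2 in CLV3n, 1.83 to 6.02 in FILp and 58.0 to 76.1 in WUSp. The unsorted arrays lay between, at 94.9 to 149. WUS and FIL have no probe set with a single gene in the probe table, so those labels were not checked through their own genes. The organ genes YAB3 and YAB5, relatives of FIL, had a summed signal of 790 to 932 in FILp, 275 to 340 in CLV3n, 21.4 to 84.1 in CLV3p and 53.7 to 55.4 in WUSp.

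Median signals of the arrays ran from 155.0 to 198.7, and 16.4% to 24.2% of the signals of an array were under 20. Arrays of one group correlated at 0.952 to 0.982 (Spearman, computed over probe sets). A hybridisation control, bioC, was low (216 to 313) on CLV3p 3, CLV3n 3 and the FILp arrays and high (643 to 1070) on the other 10 arrays. The actin 3'/5' ratio was highest on CLV3n 1 and CLV3p 1 (log2 of 4.2 and 3.78), and lay between 2.14 and 3.43 on the others.

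The members were chosen by the CLV3p, CLV3n, FILp and WUSp values, so these values are a description and no test of them is given. The mean of CLV3p lay between 20 and 943 with a median of 54. It was under 50 for 42 of the 91 probe sets and 100 or more for 27, so that "silent" describes only some of them. In 5 probe sets all CLV3p arrays were under 20, in 8 probe sets 2 arrays were, and in 22 only 1 was, while 56 had no CLV3p array under 20. The group is therefore called low in CLV3p below. In sorted cells pooled for an array, fewer cells that express a gene and less RNA per cell cannot be told apart.

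The smallest of the 3 other means exceeded the CLV3p mean 5.88-fold at the median, with a range of 4.01-fold to 42.0-fold. The ratio was 8 or more in 31 probe sets, 10 or more in 19 and 16 or more in 6. In all 91, every CLV3p array lay below every one of the 8 arrays of CLV3n, FILp and WUSp. Over all probe sets this held for 5.08%, and the rule used the same values, so nothing is read from it. Just inside the rule were 252282_at and 253053_at, at 4.01-fold and 4.02-fold, and AT1G79720 at 4.05-fold. Just outside were 261197_at at 3.95-fold, 251322_at at 3.935-fold and AT4G30650 at 3.92-fold. A further 51 probe sets had ratios from 3 to under 4, and 32 of the 91 from 4 to under 5.

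**Figure D1:**
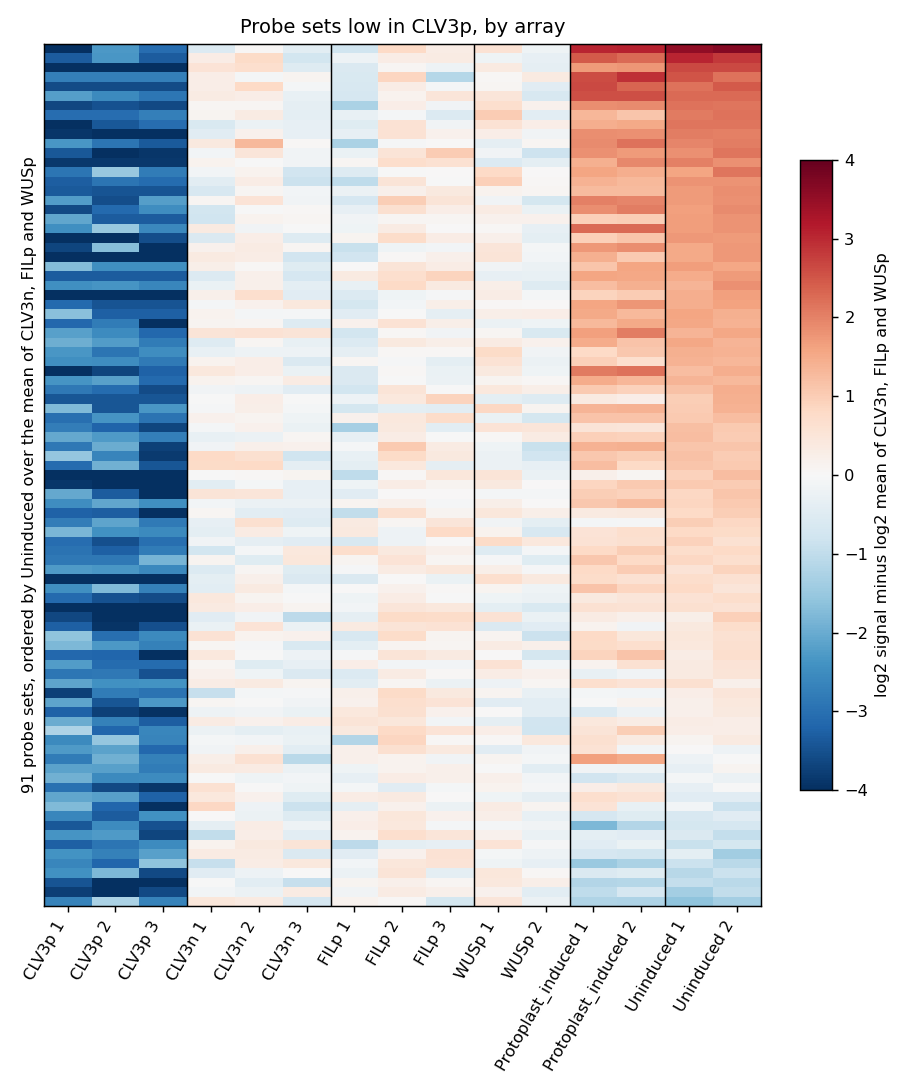
Each line is 1 of the 91 probe sets and each column 1 of the 15 arrays; colour gives log2 signal (signals under 20 raised to 20) minus the log2 mean of CLV3n, FILp and WUSp, with values beyond -4 and 4 in the end colours. The 3 CLV3p columns are blue throughout, the 8 columns of the other sorted populations are near 0, and the 4 unsorted columns run from red for most probe sets to blue for a few at the bottom.

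The probe table pairs 37 of the 91 probe sets with 1 gene, all different, and none with several. For the other 54 no gene is listed, and they are given by probe set ID where they are mentioned at all. The RefSeq table holds all 37 genes, of which 12 have a symbol and 25 a locus code only. A role is stated only for genes that these tables name by symbol or synonym, and none is stated for AILP1.

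Among the genes with a symbol, PMEPCRF and TBL37 have a role in the cell wall. PMEPCRF (AT5G53370, probe set 248263_at) encodes a pectin methylesterase, an enzyme that removes methyl groups from the pectin of the wall. Its signal was 75.4, 25.3 and 32.5 on the CLV3p arrays. It was 692, 863 and 457 in CLV3n, 740, 1627 and 1581 in FILp and 1427 and 785 in WUSp. The unsorted arrays had 1183 and 1089 in Protoplast_induced and 1120 and 1848 in Uninduced, of which only Uninduced 2 lay above all sorted arrays. The smallest other mean was 16.4-fold above CLV3p, the largest ratio among the 12 genes with a symbol.

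TBL37 (AT2G34070, 256725_at) belongs to the TRICHOME BIREFRINGENCE-LIKE family, several members of which acetylate wall polysaccharides. It had signals of 74.8, 29.9 and 65.5 in CLV3p. CLV3n had 341, 319 and 292, FILp 359, 506 and 471, and WUSp 234 and 239. With 316 to 427 on the unsorted arrays, the gene was about as high there as in the sorted cells outside CLV3p. Its ratio to the smallest other mean was 4.49.

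Metabolic enzymes formed the next set. ALDH11A3 (AT2G24270, 265998_at) encodes the non-phosphorylating glyceraldehyde-3-phosphate dehydrogenase, a cytosolic enzyme that makes NADPH from a triose phosphate. Its CLV3p arrays stood close together at 96.4, 109 and 97.9, with an SD of 0.094 on the log2 scale. CLV3n had 1277, 1283 and 943, FILp 505, 1459 and 1104, and WUSp 1921 and 1369. Its signals were highest on the unsorted arrays, at 4386 and 4484 in Protoplast_induced and 5427 and 5324 in Uninduced, which all lay above every sorted array. The ratio to the smallest other mean was 9.26 (FILp), and FILp 1 was the array nearest to CLV3p.

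FDH (AT5G14780, 246595_at) encodes formate dehydrogenase, the mitochondrial enzyme that oxidises formate. It gave 48.4, 92.4 and 83.3 in CLV3p. The other sorted arrays had 339 to 617 in CLV3n, 736 to 1088 in FILp and 690 and 524 in WUSp. Unsorted arrays had 601 to 908, within the range of the sorted ones, and the smallest other mean was 6.997-fold above CLV3p.

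LrgB (AT1G32080, 255719_at) encodes a protein of the plastid envelope that carries glycolate and glycerate in photorespiration. Its CLV3p signals were 59.9, 9.88 and 5.28, so that 2 of the 3 arrays were under 20 and the ratio of 5.49 rests on the floor. CLV3n had 182 to 211, FILp 141 to 189, and WUSp 227 and 233. The unsorted arrays were all higher, at 470 to 574.

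Enzymes of specialised metabolism were represented by a glucosyltransferase and a pair of cytochromes P450. UGT71C3 (AT1G07260, 256053_at), a UDP-glucosyltransferase, had 132, 80.5 and 149 in CLV3p. Its signals were 561 to 802 in CLV3n, 906 to 1105 in FILp, and 932 and 656 in WUSp. Here the unsorted arrays, at 498 to 588, were lower than all but 1 of the other sorted arrays, CLV3n 3.

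CYP71B6 (AT2G24180, 266000_at) and CYP71B28 (AT1G13090, 262780_at) are P450 enzymes of one subfamily. CYP71B6 had 97.2, 45.5 and 8.01 in CLV3p, 490, 440 and 164 in CLV3n, 233, 486 and 370 in FILp and 241 and 168 in WUSp. The spread within CLV3p was wide (SD of 1.14 on the log2 scale), and CLV3p 1 came within 2-fold of CLV3n 3 and WUSp 2. CYP71B28 had 28.0, 45.7 and 23.8 in CLV3p against 114 to 198 over the 8 other sorted arrays. On the unsorted arrays CYP71B6 had 565 to 640 and CYP71B28 217 to 342, above every sorted array of either gene. In the RefSeq order CYP71B6 lies 15 genes away from ALDH11A3, the only pair among the 37 genes with at most 20 positions between them.

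Among regulators, BPEp (AT1G59640, 262073_at) is BIGPETAL, a bHLH transcription factor that limits petal size. It had 75.1, 45.5 and 30.1 in CLV3p and 228 and 173 in WUSp. CLV3n, with 334 to 373, and FILp, with 275 to 425, were higher than WUSp on every array, and the unsorted arrays had 351 to 394. MYBC1 (AT2G40970, 267077_at), a MYB-like transcription factor gene, had 86.2, 70.0 and 100.3 in CLV3p. It had 568, 570 and 303 in CLV3n, 326, 514 and 674 in FILp, and 431 and 394 in WUSp. Its unsorted arrays, at 172 to 345, overlapped these only at CLV3n 3 and FILp 1.

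WLIM1 (AT1G10200, 264462_at) encodes a LIM-domain protein that binds and bundles actin filaments. Signals were 25.3, 55.5 and 9.48 in CLV3p, 358, 369 and 165 in CLV3n, 161, 283 and 164 in FILp, and 181 and 170 in WUSp. All 4 unsorted arrays, at 371 to 497, were above every sorted one. AT1G68570 (262281_at), which has NPF3.1 among its RefSeq synonyms and belongs to the NRT1/PTR family of nitrate and peptide transporters, had 49.8, 132 and 54.9 in CLV3p. The other sorted arrays ran from 226 to 667 and the unsorted ones from 1054 to 1665, so the sorted and unsorted arrays did not overlap. AILP1 (AT5G19140, 249922_at) had 270, 266 and 174 in CLV3p. Elsewhere it had 898 to 1532 in sorted cells and 948 to 1291 on the unsorted arrays, which overlap.

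**Figure D2:**
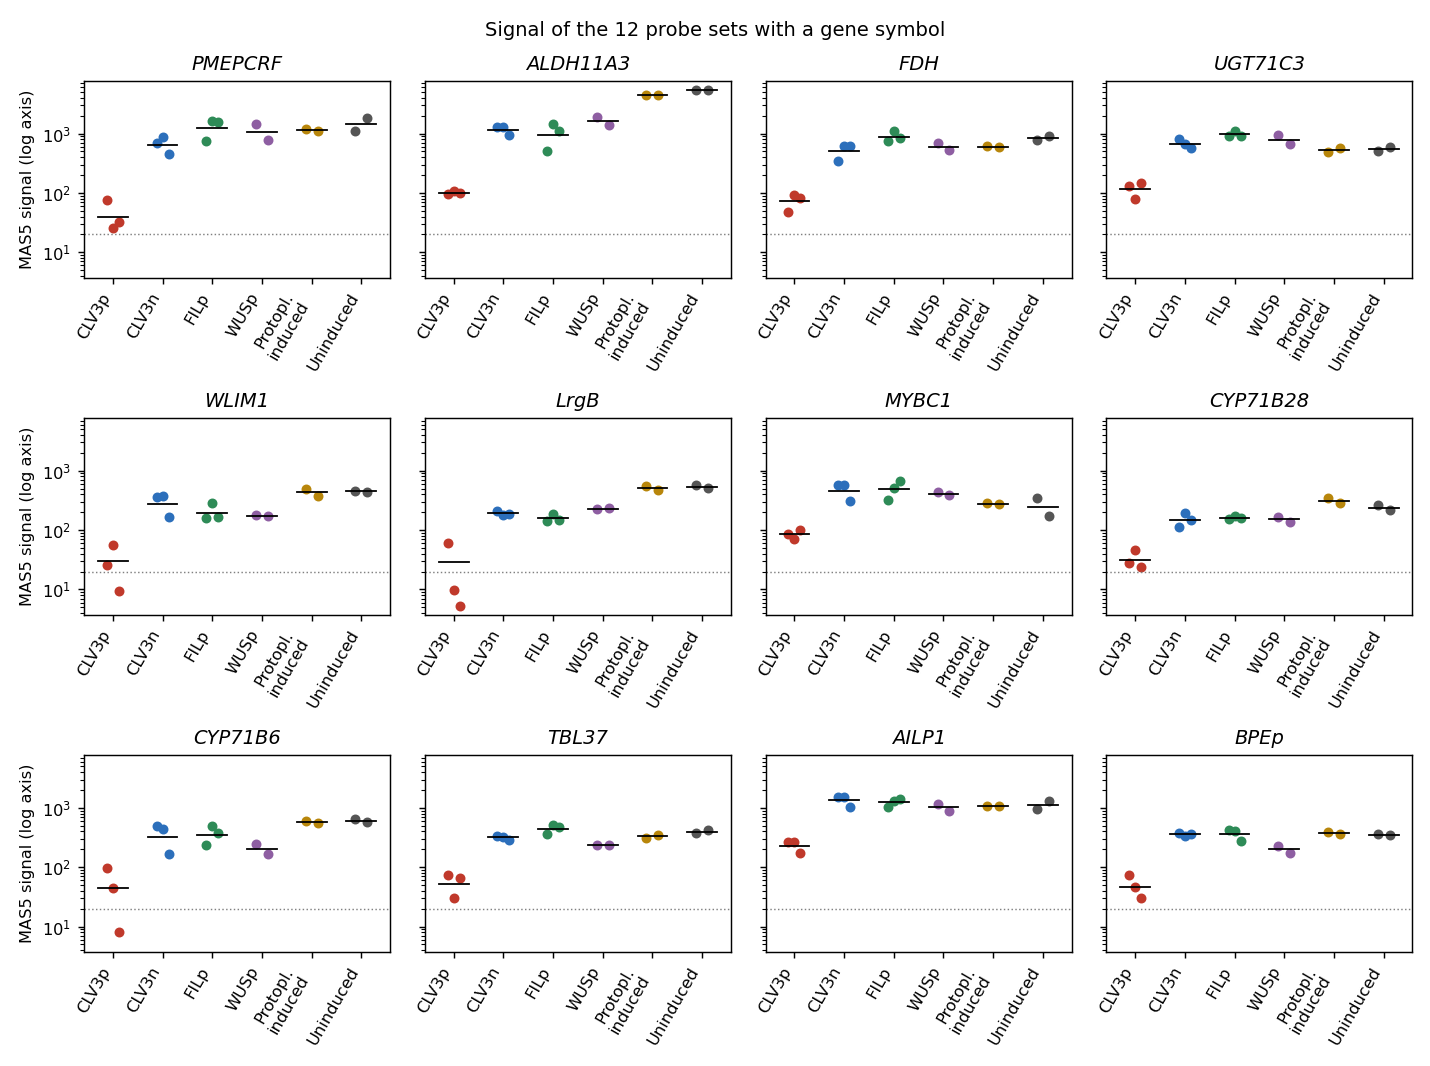
Signal on every array (points, log axis) and the geometric mean per group with signals under 20 raised to 20 (bars) for the 12 probe sets with a gene symbol; the dotted line is a signal of 20. CLV3p is the lowest group in every panel, and the unsorted groups stand above the other sorted groups for ALDH11A3, LrgB, CYP71B6, CYP71B28 and WLIM1 but not for UGT71C3 or MYBC1.

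Of the 25 genes with a locus code only, AT1G49750 (261598_at) had the largest ratio, 21.7. It had 10.6, 32.4 and 2.66 in CLV3p, 728, 704 and 337 in CLV3n, 336, 593 and 665 in FILp, and 826 and 532 in WUSp. With 2 CLV3p arrays under 20, this ratio depends on the floor. AT5G03610 (250918_at) followed at 17.5, with no CLV3p array under 20. It had 92.5, 94.4 and 42.9 in CLV3p while CLV3n, FILp and WUSp ran from 1025 to 2434.

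AT3G61820, AT1G11670, AT2G40230 and AT5G38980 had ratios of 12.6, 11.8, 10.8 and 10.4. AT1G14890 was the one gene with a name in the table for which every CLV3p array was under 20, at 4.66, 2.62 and 7.25, with 150 to 397 in CLV3n, FILp and WUSp. Its ratio is a bound, at least 7.82-fold. At the other end, AT1G44760 was far from silent in CLV3p, with 697, 671 and 570, and was a member through signals of 2285 to 4621 elsewhere in the sorted cells. The other 17 of these genes, AT1G68570 among them, had ratios of 4.05 to 9.81.

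The largest ratio of all belonged to 258054_at, which has no gene in the table and is named because of its value. It had 87.9, 41.4 and 60.2 in CLV3p and 2054 to 4833 on the other sorted arrays, a ratio of 42.0. The unsorted arrays had 5582 to 9478. No CLV3p array was under 20, so this ratio is not set by the floor.

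Members were also looked up in 13 gene lists read from symbols. Of all probe sets 0.4% were members, so counts of 0 in lists of this size are near that share. It is not the exact background, since only the 12 members with a symbol could be listed. The share among probe sets with a symbol was not taken, so the counts are a description. The list of specialised metabolism and P450 held 3 members in 102 probe sets, UGT71C3, CYP71B28 and CYP71B6, and 17 of the 102 met the conditions on CLV3n, FILp and WUSp. MYBC1 was in the list of transcription factors, which has 97 probe sets, 27 of which met those conditions. PMEPCRF and TBL37 were placed in the cell wall list, and BPEp in that of transcription factors, after the values were seen, so their presence there is no count. The other 10 lists had no member. The other conditions limited which of their probe sets could be members. They were met by 23 of 38 for photosynthesis and chlorophyll, 40 of 83 for protein synthesis and turnover, 6 of 61 for lateral organ and boundary and 1 of 14 for auxin. The 25 genes with a locus code and the 54 probe sets without a gene could not be in any list.

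The rule was also applied with each other population as the low one. It gave 68 probe sets for WUSp, 2 for FILp and 0 for CLV3n, out of 10824, 10205 and 9980 that met the conditions on the other 3. The mirror image, 4-fold above each of 3 even populations, held for 0 probe sets in CLV3p, 5 in WUSp and 0 in FILp and CLV3n. CLV3 does not count here, because its other means are under 100. These counts are descriptions of the rule and were not compared by a test.

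Among CLV3n, FILp and WUSp the members had no single order. FILp had the highest mean in 41 probe sets, WUSp in 32 and CLV3n in 18, and the lowest mean was in CLV3n for 34, WUSp for 33 and FILp for 24. By array, the median of the members relative to their own mean of the 3 populations (log2) was 0.33 on FILp 2 and -0.28 on FILp 1. It was 0.15 on CLV3n 2 and WUSp 1, -0.17 on WUSp 2 and -0.26 on CLV3n 3. Over the 10579 probe sets that met the other conditions but were not members, the same medians lay within -0.02 and 0.03 on these 8 arrays. The members were chosen with these arrays, so nothing is read from the difference.

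The CLV3p arrays also differed. The median signal of the members was 74.3, 64.9 and 46.0 on CLV3p 1, 2 and 3, and 12, 16 and 25 members were under 20 there. CLV3p 3 is the only CLV3p array with a low bioC signal. The split by bioC is taken from the signals, and the labels name no batch. Among the arrays with low bioC the smallest other mean (CLV3n and FILp) was 3.02-fold or more above CLV3p 3, 7.2-fold at the median, and at least 4-fold for 83 of 91. Among those with high bioC, with 2 CLV3p arrays against CLV3n and WUSp, it was 3.03-fold or more, 6.46-fold at the median and at least 4-fold for 75. Over the 10670 probe sets that met the other conditions, the medians were 0.887-fold and 0.866-fold. The members were chosen with all these arrays, so the ratios are a description and nothing is read from them.

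A CLV3p array that took no part in the choice allows a look at the same measure. With CLV3p 1 left out the rule chose 103 probe sets, and on CLV3p 1 all 103 were below the smallest other mean, 97 at or under 0.5 times and 61 at or under 0.25 times it. With CLV3p 2 left out it chose 92, of which 92, 91 and 62 did so on CLV3p 2. With CLV3p 3 left out it chose 75, of which 75, 74 and 64 did so on CLV3p 3. The median ratio on the left-out array was 0.198, 0.173 and 0.128. Over the 10670 probe sets that met the other conditions it was 1.16, 1.18 and 1.21, with 2.74%, 2.68% and 3.52% at or under 0.5. Most of the choice was low again on the left-out array, while the share at or under 0.25 times was 61 of 103 and 62 of 92 on CLV3p 1 and 2. The smallest other mean in these ratios comes from arrays that made the choice, so only the CLV3p value is new. The counts are a description.

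**Figure D3:**
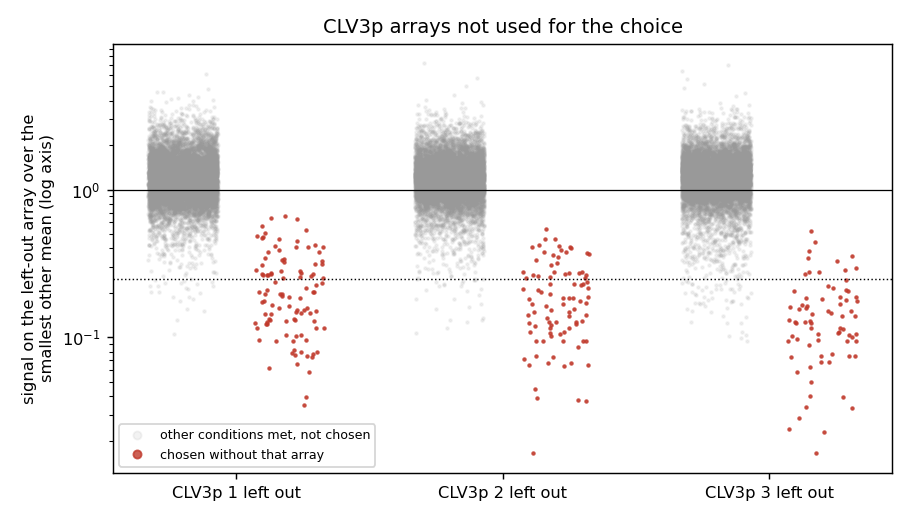
For each CLV3p array, the signal on that array (raised to 20) over the smallest of the CLV3n, FILp and WUSp means (log axis), for probe sets chosen by the rule without that array (red) and for those that met only the other conditions (grey). The red points lie below 1 on all 3 arrays, with medians of 0.198, 0.173 and 0.128, and the dotted line marks 0.25. The CLV3n, FILp and WUSp means in this ratio were used by the rule.

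The unsorted arrays took no part in the rule. In Uninduced, 90 of the 91 members had a mean of 100 or more, and in Protoplast_induced 88 had. All Protoplast_induced arrays lay above all CLV3p arrays for 91 members and all Uninduced arrays for 90, where 26.4% and 24.6% of all probe sets did so. The CLV3p values on which this rests are those the rule used. The exception was 253414_at, at 41.7 and 50.04 in Uninduced against 53.0 on CLV3p 2.

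For most members the unsorted arrays were higher than the sorted ones outside CLV3p as well. The Uninduced mean was above the mean of CLV3n, FILp and WUSp for 74 members, at least 2-fold above for 47 and at least 2-fold below for 3, with a median ratio of 2.11 and a range of 0.358 to 12.2. In Protoplast_induced these counts were 75, 41 and 4, with a median ratio of 1.93. Among the 10579 probe sets that met only the other conditions, the median ratio was 1.02 in Uninduced and 0.988 in Protoplast_induced. Of these, 2.57% and 4.12% were at least 2-fold above, against 51.6% and 45.1% of the members. Above by any amount were 52.3% and 48.6%, against 81.3% and 82.4% of the members. At least 2-fold below were 3.95% and 5.03%, against 3.3% and 4.4% of the members, so those counts are near the background. All 4 unsorted arrays lay above all 8 arrays of CLV3n, FILp and WUSp for 52 members, which is the case for 8.57% of all probe sets and 10.4% of those that met only the other conditions. They lay below all 8 for 5 members, against 5.74% and 9.18%. These are descriptions, since the sorted means entered the rule.

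ALDH11A3 had a Uninduced mean 4.46 times the mean of the 3 sorted populations, AT1G08230 4.81 times and AT5G38980 3.96 times. AT1G68570, AT4G16190, AT5G20700, AT1G67750 and AT3G61820 had 3.62, 3.47, 3.39, 3.32 and 3.297 times. The highest ratio was that of 247162_at, without a gene in the table, at 12.2. It had 3735 and 4066 in Uninduced and 2618 and 2680 in Protoplast_induced, against 185 to 556 in CLV3n, FILp and WUSp and 15.5 to 64.9 in CLV3p.

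A smaller number went the other way. Their share at 2-fold or more was near the background, so the following values only describe single members. AT1G11670 had 844 and 788 in Uninduced and 725 and 748 in Protoplast_induced, below the 870 to 2211 of CLV3n, FILp and WUSp, and a ratio of 0.495 in Uninduced. MYBC1, AT3G12710, AT3G52470 and UGT71C3 had ratios of 0.54, 0.58, 0.588 and 0.689. The lowest was 253414_at with 0.358. For these members the mean of CLV3n, FILp and WUSp was above the means of CLV3p and of both unsorted groups. Single arrays overlapped for MYBC1, AT3G12710, AT3G52470 and UGT71C3. For AT3G12710, FILp 1 had 93.8, below the 105 to 159 of the unsorted arrays.

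**Figure D4:**
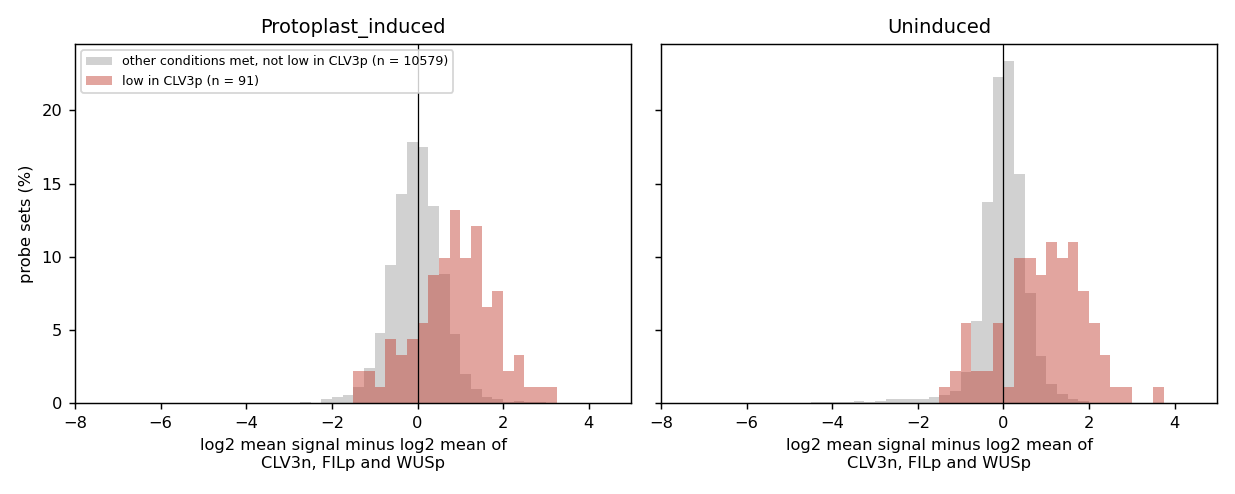
Share of probe sets (%) by the log2 mean signal in Protoplast_induced (left) or Uninduced (right) minus the log2 mean of CLV3n, FILp and WUSp, for the 91 probe sets low in CLV3p (red) and the 10579 that met only the other conditions (grey). The grey medians are -0.02 and 0.02 and the red medians 0.95 and 1.08.

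Markers of green tissue were also lowest in CLV3p. The 4 genes of the green tissue list, LHCB4.1, PRK, RCA and PORB, genes for a light-harvesting protein, phosphoribulokinase, Rubisco activase and a chlorophyll synthesis enzyme, all have a probe set and none is a member. Their summed signal was 1660 to 2110 in CLV3p, 4660 to 5530 in CLV3n, 4670 to 7520 in FILp and 6830 to 7840 in WUSp. It was 5850 to 6460 in Protoplast_induced and 8360 to 9080 in Uninduced. The Protoplast_induced sum lay within the range of CLV3n, FILp and WUSp, and the Uninduced sum lay above that range. LHCB4.1 was lower in Protoplast_induced (1570) than in those 3 populations (2240 to 2500) and higher in Uninduced (2760). PRK was higher in both unsorted groups (761 and 945) than in the 3 populations (397 to 600). RCA lay within their range in both unsorted groups, and PORB lay above it only in Uninduced (2670). The lowest group mean of any of the 4 was 124, that of PRK in CLV3p. YAB3 and YAB5, the measured organ markers, were low in both CLV3p and WUSp, unlike the members. So was the boundary gene PTL, with group means of 21.4 in CLV3p, 41.4 in WUSp and 295 to 390 in the other groups. LAS, the other measured boundary gene, had 79.6 in CLV3p, 55.2 in WUSp, 82.9 in FILp and 129 to 189 elsewhere. The part of other cell types in the members' pattern was not tested.

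The comparison of Protoplast_induced with Uninduced is the one test here on arrays that the rule did not use. It was made with limma on log2 signal, over 13911 probe sets, with Benjamini-Hochberg adjustment over all of them. Of the 91 members 90 were tested, and the one left out by the filter on low signals was 253414_at. In Protoplast_induced 23 of the 90 members were lower and 6 higher. Over all tested probe sets 11.4% were lower and 10.5% higher, against 25.6% and 6.67% of the members. Of all calls 47.9% were higher, and 34.1% after median centring of the arrays, where 24 members were lower and 4 higher. Among the 10582 tested probe sets that met the conditions on CLV3n, FILp and WUSp, 12% were lower and 8.44% higher. The median log2 difference was -0.06 for the members and 0.00158 for all tested probe sets.

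None of the 90 members was 2-fold lower in Protoplast_induced and 2 were at least 2-fold higher, where 1.15% and 3.87% of all tested probe sets were, so these counts are near the background. Of all 91 members, the arrays of the groups did not overlap for 34 lower and 22 higher, against 32.1% and 31.3% of all tested probe sets. The 22 include 253414_at, which was not tested. In a single fit of all 15 arrays, whose spread estimate includes the sorted groups, 0 members were called lower and 1 higher by limma, with 9 of 91 at an unadjusted p under 0.05.

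The members with the largest falls, 254363_at, 256825_at, 260410_at and 257313_at, have no gene in the table and had log2 differences of -0.97 to -0.91. Of those with a gene, AT1G14890 fell most. Its signals were 270 and 253 in Protoplast_induced and 424 and 565 in Uninduced, a log2 difference of -0.90 ± 0.18 (SE, n = 2 and 2; limma adjusted p = 0.00438). AT1G67750 had 388 and 396 against 631 and 689 (-0.75 ± 0.14; limma adjusted p = 0.00347). AT3G61820 had 1815 and 2034 against 3146 and 3031 (-0.68 ± 0.11; limma adjusted p = 0.00128). In each of the 3 both Protoplast_induced arrays lay below both Uninduced arrays.

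AT2G40230 and AT4G16190 were lower by smaller amounts, with log2 differences of -0.67 ± 0.18 (limma adjusted p = 0.0218) and -0.46 ± 0.11 (limma adjusted p = 0.0102). The formate dehydrogenase gene FDH had 607 and 601 against 765 and 908 (-0.46 ± 0.14; limma adjusted p = 0.0345), and ALDH11A3 had 4386 and 4484 against 5427 and 5324 (-0.28 ± 0.09; limma adjusted p = 0.0488). These 4 calls depended on single arrays and on the settings of the fit. That of AT2G40230 ended without Protoplast_induced 1 or Uninduced 2 (limma adjusted p = 0.189 and 0.0772), and that of AT4G16190 without Protoplast_induced 2 (0.115). FDH lost its call without Protoplast_induced 1, Protoplast_induced 2 or Uninduced 2 (0.14, 0.146 and 0.116), and ALDH11A3 without Protoplast_induced 1 or 2 (0.303 and 0.217). With no filter on low signals AT2G40230, FDH and ALDH11A3 lost their calls (0.051, 0.0716 and 0.0855). With plain eBayes AT4G16190, FDH and ALDH11A3 did (0.0638, 0.0794 and 0.178), and with quantile normalization ALDH11A3 did (0.0655).

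Higher in Protoplast_induced were 2 genes with a name. AT3G15810 had 1342 and 1248 against 622 and 617, a 2.09-fold difference (log2 1.06 ± 0.13; limma adjusted p = 0.000135). AT5G66440 had 2604 and 2792 against 1714 and 2113 (0.503 ± 0.126; limma adjusted p = 0.0148), and its call ended without Protoplast_induced 2 (0.0949), with median centring (0.054) and with plain eBayes (0.0783). The largest rise among the members was that of 257748_at, which has no gene in the table and is named for its value. Its signals were 873 and 793 against 240 and 277 (1.69 ± 0.15; limma adjusted p = 1.42e-05), while in sorted cells it had 133 to 424 outside CLV3p and 40.3 to 73.3 in CLV3p.

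Of the 12 genes with a symbol, FDH and ALDH11A3 passed the test and the other 10 did not. PMEPCRF had a log2 difference of -0.34 ± 0.21 (limma adjusted p = 0.292) and CYP71B28 of 0.37 ± 0.19 (limma adjusted p = 0.189). For TBL37, LrgB, WLIM1, CYP71B6, AILP1, UGT71C3, BPEp and MYBC1 the differences lay between -0.25 and 0.19.

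**Figure D5:**
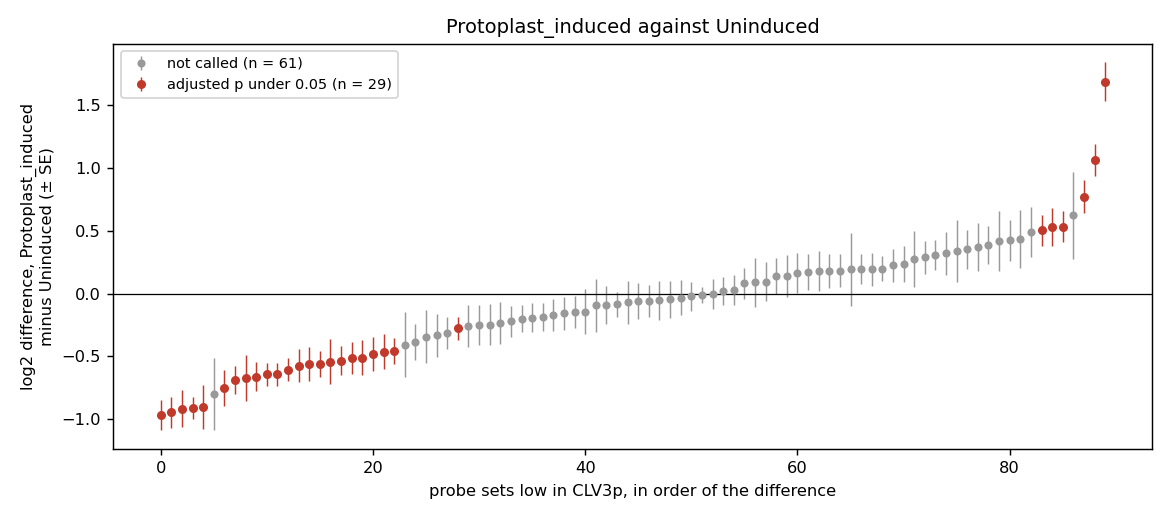
Log2 difference of Protoplast_induced minus Uninduced (points, with the SE as bars) for the 90 tested probe sets low in CLV3p, in order of size; red marks an adjusted p under 0.05 (29 probe sets, 23 below 0 and 6 above). The differences lie between -0.97 and 1.69, and most are under 1 in size.

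For the members, spread between arrays was wider in the sorted cells than in unsorted material, where their signals were also higher. The median of their group means was 54.0 in CLV3p and 440 to 460 in CLV3n, FILp and WUSp. In Protoplast_induced it was 1050 and in Uninduced 988. The part of signal level in the spread was not tested. The median SD of the members on the log2 scale, with signals raised to 20, was 0.48 in CLV3p, 0.34 in CLV3n, 0.3 in FILp and 0.26 in WUSp. It was 0.09 in Protoplast_induced and 0.13 in Uninduced. CYP71B6, AT5G62350 and LrgB had the widest spread in CLV3p among the 37 members with a gene (SD of 1.14, 1.04 and 0.91).

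The genes outside the group whose 6 group means followed the median profile of the members most closely were AT2G38870, AT1G74940, AT4G02940, SAMDC and AT3G10760. Pearson correlations over the 6 groups were 0.994, 0.991, 0.99, 0.99 and 0.989, with points that share arrays, and are given as a description. All 5 were lower in CLV3p than in the other sorted populations but missed the 4-fold limit. AT4G02940 had means of 59.5 in CLV3p, 204 in CLV3n, 282 in FILp and 221 in WUSp, and its smallest other mean was 3.42-fold higher. SAMDC, which encodes an S-adenosylmethionine decarboxylase of polyamine synthesis, had 5130 in CLV3p and 9270 to 10600 in the other sorted populations, a ratio of 1.81.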

How the data were processed

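Per the submitters' processing notes, the deposited values were made with MAS5. They are an intensity (MAS5 signal, not log-transformed) of 22810 probe sets on 15 Affymetrix arrays, and the authors' background and scaling settings are not given in the sources used here. Control probe sets (64) were set aside, and no further normalization was applied. The rule for members was applied to geometric means per group with signals under 20 raised to 20. The members, gene lists and tests were chosen with earlier results of these data known. Lists matched symbols by prefix, and after the values were seen FDH and AILP1 were taken out of lists they matched by spelling only and PMEPCRF, TBL37 and BPEp were added. All members with 1 gene in the probe table could be named.

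The test of Protoplast_induced against Uninduced used log2 signal and limma 3.58.1 under R 4.3.3 (eBayes with trend and robust, two-sided), on probe sets above the 40th percentile of an array on at least 2 of the 4 arrays. The threshold was an adjusted p of 0.05. The procedure was tested on simulated data. Nothing says that replicates were separate sorts or plants, so the p-values measure only the spread between these arrays, whose number limits the precision. No sequences are printed.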

Additional observations from a re-analysis of the deposited data

How the results depend on the processing

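The count of 91 probe sets was 142 at 3-fold in place of 4-fold, 45 at 6-fold and 51 with the other means within 1.5-fold, which follow from the rule itself. It was 66 to 102 under a floor of 10 or 40, a smallest mean of 200, median centring, quantile normalization, arithmetic means or without CLV3n 1 and CLV3p 1, and 75 to 103 when 1 of the 11 arrays of sorted cells was left out. In all 11 such choices 45 of the 91 were kept. No paired test was made of the members, since the rule used these arrays. Between CLV3p and CLV3n arrays of the same number, a view chosen after seeing the data, CLV3n was at least 4-fold higher for 77, 85 and 86 of the 91. The rule used these values, so nothing is read from the 3 counts. Over the 10670 probe sets that met the other conditions, deviations of these same-numbered arrays from their group means correlated at 0.518, 0.09 and 0.467. This is a hint from the data that the numbers may pair them and not part of the design. Numbers 1 and 3 correlated crosswise at -0.474 and -0.446, and deviations from a shared mean are not independent. CLV3p 1 and CLV3n 1 also share the highest actin ratios, and CLV3p 3 and CLV3n 3 the low bioC signals.

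For Protoplast_induced against Uninduced, the 1463 probe sets higher and 1589 lower became 453 and 274 in a fit of all 15 arrays, where 1 member was higher and 0 lower in place of 6 and 23. Plain eBayes left 932 probe sets and 13 members lower. Leaving out 1 array gave 694 to 1655 probe sets higher and 882 to 1676 lower, and 4 to 9 members higher and 17 to 29 lower. With arrays centred on their median the share of calls that were higher fell to 34.1% from 47.9%, with 4 members higher and 24 lower. With the replicate number as a block 1775 probe sets were higher and 1879 lower, and 8 and 24 members. Deviations of same-numbered arrays correlated at 0.096, which does not show that the numbers pair the arrays. The 9 named differences reversed in 0 of 108 alternatives and lost their call in 27, of which 9 were in the fit of all 15 arrays. The number of arrays limits all of this, and signals near 20 have no reliable order.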
